A study of Mus musculus with 18 samples.

Results

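The interferon-stimulated genes are described here across a mouse stroke time course: 39 listed genes, all 39 of which were among the 34921 complete gene entries of the expression table. The listed names were matched to the table, and all 18 libraries were used. Interferons are secreted antiviral cytokines. Type I interferons bind the receptor IFNAR1/IFNAR2 and interferon gamma binds IFNGR1/IFNGR2, and JAK kinases then activate STAT proteins. A complex of STAT proteins and IRF9 binds the interferon-stimulated response element (ISRE) in target promoters, while interferon gamma acts through the gamma-activated sequence (GAS). In brain, microglia, astrocytes, endothelium and invading myeloid cells can all express such genes.

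Total RNA was sequenced from micro-punches of the cerebrum of male C57BL/6 mice, an inbred strain, aged 9 weeks. Ischemia was made by photothrombosis: rose bengal, a light-sensitive dye, was injected intraperitoneally at 100 mg/kg, and 5 min later a laser (532 nm, 40 mW, 2 mm fiber) lit the skull 2 mm right of bregma for 15 min, which clots the vessels below. The lesioned right side was punched at 4 h, 1 day, 3 days and 10 days, guided by magnetic resonance images, with 3 mice at each time. The controls were 3 punches from the matching right side of sham mice (sham right) and 3 punches from the left side (contralateral left). By the protocol the left-side punches came from mice with stroke, at a time not stated, although these samples carry the disease state sham. The labels do not say whether sham mice received dye or light, or whether libraries of one number share a mouse. Expression is given in FPKM, a read density per kilobase of transcript that is scaled to the library's total. The depth of each library is unknown, since 33.5% to 39.3% of low values lay within 0.1 of a whole multiple of what 1 fragment would give. Between 12118 and 13632 genes reached 1 FPKM in a library, and mitochondrial genes took 24.4% to 44.6% of the summed FPKM, most in 10 day library 5. Neuronal Snap25 stood between 349 and 576 FPKM in every library, as a check that the punches held brain tissue. Ttr, the leading transcript of choroid plexus, ranged from 0.407 to 625 FPKM. It varied widely within the 4 h, 1 day and 3 day groups, while every 10 day library (402 to 625 FPKM) and every contralateral left library (376 to 536 FPKM) lay above every sham right library (144 to 267 FPKM), with no call.

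Of the 39 genes, 35 reached 1 FPKM in at least 3 libraries and were tested among 14016 genes. Ifi44, Oas2, Oas3 and Oasl1 did not pass that filter. Irf7, Irf8, Oasl2, Rsad2, Parp14 and Dhx58 passed it only through the 3 day and 10 day libraries, where they were high. Dhx58 and Parp14 reached 1 FPKM in no other group. The counts of calls among the 35 genes below include these genes. All 39 are protein-coding genes in GENCODE M21 (GRCm38), with 5 each on chromosomes 5, 7 and 11, 4 each on chromosomes 3, 12 and 19, and the rest on 7 other chromosomes. Ifi27l2a, which changed most, spans chr12:103442167-103443680 on the minus strand, Ifitm3 spans chr7:141009586-141010770 on the minus strand, Lgals3bp chr11:118392751-118402092 on the minus strand and Irf8 chr8:120736358-120756694 on the plus strand. In the sham right libraries 8 of the 39 were under 1 FPKM in each library, and 14 of the 39 were at or above 1 FPKM in all 18 libraries.

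The promoters of the 39 genes were read from RefSeq (GRCm38.p6), which held 32 of them as windows of 300 bases, from 250 before to 50 after the start. They were searched on both strands for an ISRE-type motif, GAAA and GAAA with any 2 bases between them, and for a GAS-type motif, TTC and GAA with any 3 bases between them. The ISRE-type motif was present in 17 of the 32 genes (53.1%), against 3.99% of all 27025 genes with a promoter entry and 3.44% of all 32851 windows. The GAS-type motif was present in 8 of the 32 (25%), against 9.55% of all genes and 8.3% of all windows. The windows below are the 200 bases before the start, 5′ to 3′ on the gene's own strand, and show the closely spaced or overlapping matches of 5 genes that carry the ISRE-type motif and 1, Irf8, that carries only the GAS-type one. Capitals mark only the ISRE-type matches in the 5 ISRE-type windows and the GAS-type matches in Irf8, overlapping ones as a single run. The windows of Oas1a and Bst2 also hold a GAS-type match, which is left unmarked. Irf8 has a second listed start, whose 200 bases (chr8:120738439-120738638) hold neither motif and are not shown. Isg15 lies at chr4:156200819-156201018 on the minus strand, Ifit3 at chr19:34583329-34583528 and Ifit3b at chr19:34607757-34607956 on the plus strand, Oas1a at chr5:120907526-120907725 and Bst2 at chr8:71537473-71537672 on the minus strand, and Irf8 at chr8:120736158-120736357 on the plus strand.
Isg15: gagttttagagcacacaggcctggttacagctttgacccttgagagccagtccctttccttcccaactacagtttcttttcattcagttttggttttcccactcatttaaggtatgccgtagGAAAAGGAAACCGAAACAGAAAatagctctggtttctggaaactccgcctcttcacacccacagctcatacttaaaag
Ifit3: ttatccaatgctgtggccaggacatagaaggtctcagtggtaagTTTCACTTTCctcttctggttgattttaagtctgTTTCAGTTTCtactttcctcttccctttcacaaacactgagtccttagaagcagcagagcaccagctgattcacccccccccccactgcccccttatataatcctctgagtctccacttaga
Ifit3b: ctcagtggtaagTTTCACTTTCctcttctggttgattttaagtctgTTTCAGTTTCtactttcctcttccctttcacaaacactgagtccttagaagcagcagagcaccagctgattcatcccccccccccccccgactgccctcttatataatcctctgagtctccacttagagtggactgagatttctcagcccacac
Oas1a: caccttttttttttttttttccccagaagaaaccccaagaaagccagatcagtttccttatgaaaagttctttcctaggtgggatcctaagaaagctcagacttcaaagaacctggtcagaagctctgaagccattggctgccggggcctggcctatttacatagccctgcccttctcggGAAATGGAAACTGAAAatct
Bst2: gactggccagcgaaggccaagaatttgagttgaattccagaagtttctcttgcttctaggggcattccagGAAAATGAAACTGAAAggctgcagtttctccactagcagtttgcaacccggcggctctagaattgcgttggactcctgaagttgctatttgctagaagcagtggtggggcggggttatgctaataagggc
Irf8: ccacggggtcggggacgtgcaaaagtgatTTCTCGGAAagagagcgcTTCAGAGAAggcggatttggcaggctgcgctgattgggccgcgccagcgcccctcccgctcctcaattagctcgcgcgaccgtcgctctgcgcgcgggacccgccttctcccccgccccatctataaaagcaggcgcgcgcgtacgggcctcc
Isg15 held 3 overlapping matches, whose first bases were 78, 72 and 66 bases before the start. Oas1a and Bst2 each held 2 overlapping matches. The matches GAAAGTGAAA and GAAACTGAAA, read on either strand, both occurred in Ifit1, Ifit3 and Ifit3b, and the 300-base windows of Ifit3 and Ifit3b shared an identical run of 169 bases. GAAACTGAAA was the match found in most of these genes, 8 of them (Bst2, Gbp3, Gbp7, Ifit1, Ifit3, Ifit3b, Oas1a and Stat2), and occurred in 0.231% of all windows. No ISRE-type match of these letters was in the windows of Irf1, Irf7, Irf8, Irf9, Ifitm1, Lgals3bp, Xaf1 or 8 other members. Ifi27l2a, Ifi27, Oas2, Rtp4, Usp18, Parp14 and Dhx58 have no promoter shown.

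The 3 sham right libraries were not alike in these genes, and each is therefore given singly. Sham right 1 was the highest of the 3 in 38 of the 39 genes, while it was the highest in 37.3% of all genes tested. The exception was Stat2. The FPKM of sham right 1 was over 2-fold the mean of the other sham libraries in 17 of the 39 genes, against 0.992% of all genes tested, with a median ratio of 1.71 and a range from 0.914 (Stat2) to 5.12 (Ifi44). Isg15, the ubiquitin-like protein that is coupled to other proteins, was at 18.4 FPKM in sham right 1, 4.06 in sham right 2 and 5.42 in sham right 3. Ifit1, which binds foreign RNA caps, was at 7.23, 1.15 and 2.16 FPKM, and Oas1a, an oligoadenylate synthetase, at 1.66, 0.384 and 0.383 FPKM. Irf8 (0.701, 0.540 and 0.676 FPKM), Ifih1 (1.1, 0.943 and 1.05) and Cmpk2 (8.68, 7.48 and 7.71) differed little between the same libraries. Sham right 2 was the lowest in 33 of the 39 genes. Summed over the 39 genes the 3 libraries stood at 169, 88.5 and 105 FPKM. The summed FPKM of 8 microglial markers followed the same order, at 120, 94.2 and 102, and that of 8 monocyte and macrophage markers was 25, 20.0 and 26.3. The summed FPKM of 6 measured neutrophil markers was 5.62 in sham right 1, 0.951 in sham right 2 and 1.52 in sham right 3, the order of the 39 genes and further apart in ratio than either of those lists. The part of these cell types in the difference was not tested. Results that rest on sham right 1 are given with and without it.

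**Figure D1:**
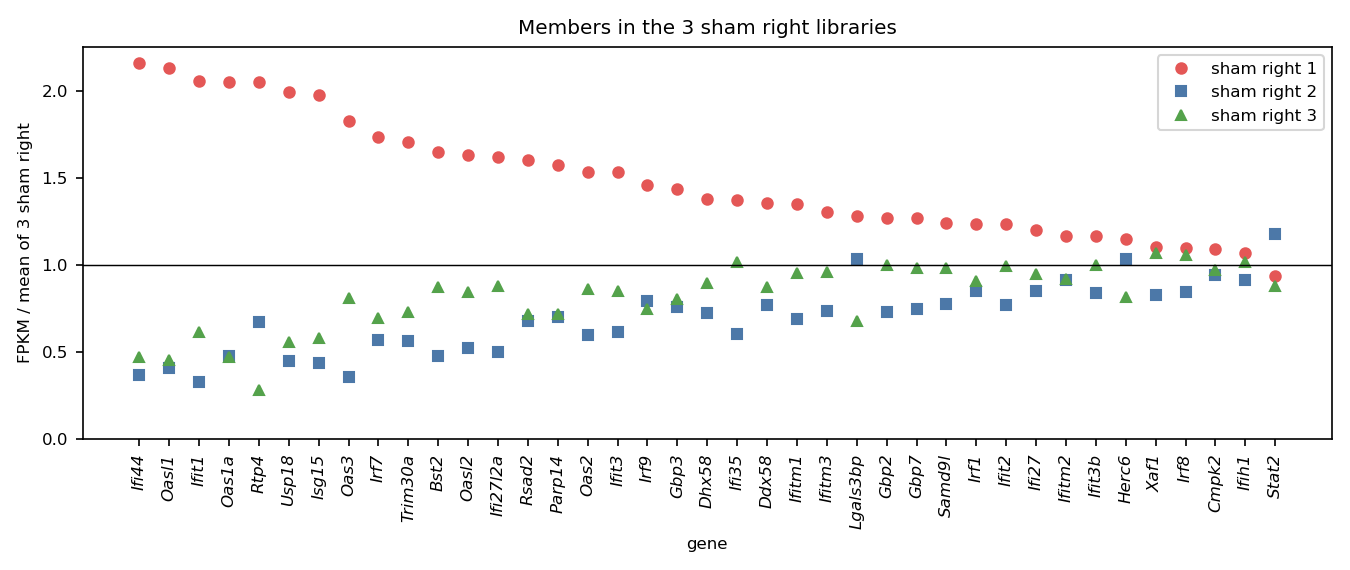
FPKM of each of the 39 genes in the 3 sham right libraries, divided by the mean of those 3 libraries (y axis), with genes on the x axis ordered by sham right 1. Sham right 1 (circles) is the highest point for 38 of the 39 genes, Stat2 being the exception.

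Across the time course most of the genes had their lowest level at 4 h or in contralateral left and their highest at 3 days. The highest group mean fell at 3 days for 28 of the 39 genes, at 10 days for 10 (Gbp2, Ifih1, Irf1, Irf8, Lgals3bp, Oasl2, Parp14, Rtp4, Samd9l and Trim30a) and at 1 day for Ifitm1. The lowest group mean fell at 4 h for 22, in contralateral left for 15 and in sham right for 2. The summed FPKM of the 39 genes was 83.9 to 99.8 at 4 h, 176 to 204 at 1 day, 292 to 529 at 3 days and 257 to 344 at 10 days. In contralateral left it was 86.5 to 121.

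**Figure D2:**
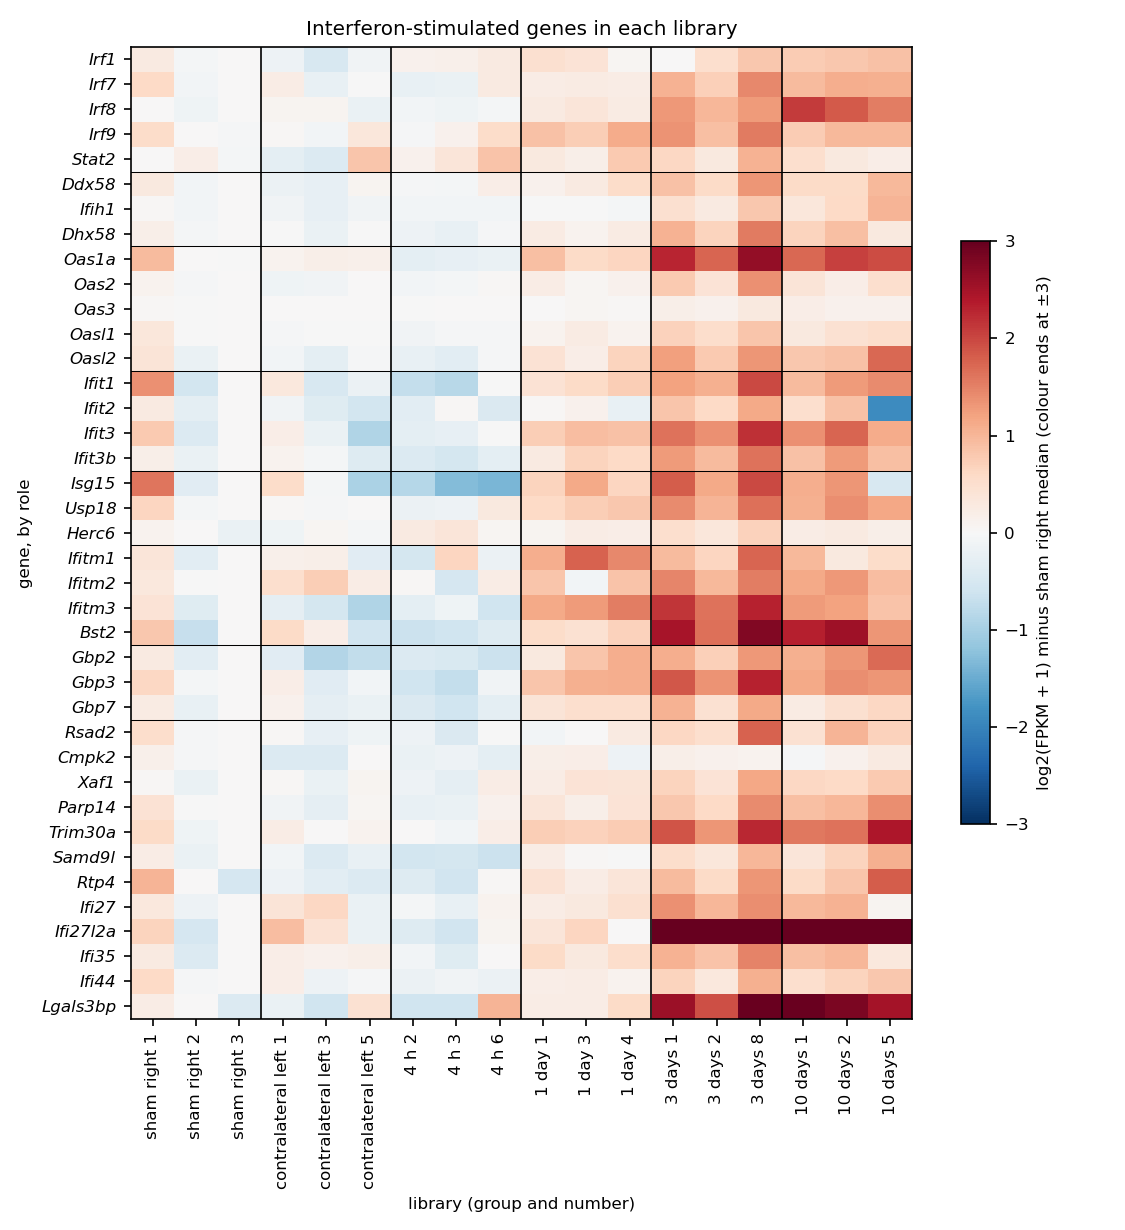
Colour gives log2(FPKM + 1) minus the sham right median of the same gene for 39 genes (rows, by role) in 18 libraries (columns, by group), with colours ending at ±3. The 3 day and 10 day columns are red for most genes, the 4 h columns are pale to blue, and sham right 1 is redder than sham right 2 and 3.

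At 4 h none of the 35 tested genes was called higher or lower than sham right by limma at an adjusted p under 0.05, against 1.32% of all genes called higher and 0.863% called lower. By the unadjusted p under 0.05, 1 was higher (Herc6) and 7 were lower. A fit on the 4 h and sham right libraries alone called 1 lower, and a fit without contralateral left 5 and 10 day 5 called 2 lower. The log2 fold changes, all on the log2(FPKM + 1) scale, were below 0 for 30 of the 35, with a median of -0.23 against 0.01 over all genes tested. Without sham right 1 that median was -0.06, with 22 of 35 below 0. In 8 of the 35 genes all 4 h libraries lay below all sham right libraries, as did 17.2% of all genes tested. Isg15 was at 2.53, 1.62 and 1.48 FPKM at 4 h, below each of the sham right values of 18.4, 4.06 and 5.42. Its log2 fold change was -1.59 ± 0.50 (SE), with an adjusted p of 0.118, and without sham right 1 it was -1.0 ± 0.47, with an adjusted p of 0.417. The guanylate-binding proteins Gbp2, Gbp3 and Gbp7, GTPases of interferon-treated cells, each lay below the sham right range in all 4 h libraries, and none was called. Gbp3 was at 1.07, 0.896 and 1.87 FPKM against 3.78, 2.00 and 2.11 in sham right (log2 fold change -0.66 ± 0.24, adjusted p 0.172). Within 4 h, library 6 was the highest in 30 of the 39 genes; it was the highest in 44.4% of all genes tested. That library had the lowest summed microglial markers of the 3 (74.5 FPKM against 91.4 and 85.5). At 4 h as a group, summed microglial markers were 74.5 to 91.4 FPKM against 94.2 to 120 in sham right, with 1 of 8 called lower (Sall1). Summed endothelial markers were 42.5 to 51.2 FPKM against 93.5 to 102, with 2 of 6 called lower (Itm2a and Slco1a4). The endothelial genes did not move together. Cdh5 averaged 5.18 FPKM against 2.6, above every sham right library without a call, and Pecam1 averaged 3.02 against 3.0. The means of Cldn5 and Flt1 were lower. Summed neutrophil markers were 7.32 to 22.1 FPKM at 4 h against 0.951 to 5.62 in sham right, with 0 of 3 tested called. Summed astrocyte markers were 136 to 161 FPKM against 163 to 183, and Aqp4 was called lower (18.5 FPKM on average against 37.1, adjusted p 0.0067). Sox9 and Gja1 lay below every sham right library without a call, while the means of Gfap and Aldh1l1 were slightly higher. The part of these cell types in the 4 h values was not tested.

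At 1 day 2 of the 35 genes were called higher than sham right and none lower, against 0.899% of all genes called higher and 0.278% called lower. Both encode interferon-induced transmembrane proteins, which hinder the entry of viruses at membranes. Ifitm3 was at 39.2, 43.0 and 52.4 FPKM at 1 day and at 23.4, 13.2 and 17.3 FPKM in sham right, so the groups did not overlap. It rose by a log2 fold change of 1.3 ± 0.23 (adjusted p 0.0068). Ifitm1 averaged 7.94 ± 2.08 FPKM (SD, n = 3) at 1 day, with 5.92 in the lowest library, against 3.15, 1.61 and 2.23 FPKM in sham right, also without overlap (log2 fold change 1.42 ± 0.32, adjusted p 0.0374). Without sham right 2 or without 1 day library 4 neither was called (Ifitm3 at an adjusted p of up to 0.0521 and Ifitm1 of up to 0.212), and Ifitm3 alone was called without sham right 1, sham right 3 or 1 day library 3. The third family member, Ifitm2, was at 16.7, 8.31 and 16.9 FPKM and was not called (0.43 ± 0.25, adjusted p 0.727). The other 33 genes were not called; 11 of the 35 lay above all sham right libraries, as did 14.3% of all genes tested. The median log2 fold change was 0.37 against 0.03 over all genes, and 0.54 without sham right 1. Against 4 h, 6 of the 35 genes rose by 1 day (Ifitm3, Gbp3, Gbp2, Gbp7, Ifit3b and Ifitm1) and none fell, against 0.849% and 0.378% of all genes. In 25 of the 35 every 1 day library lay above every 4 h library, as for 12.6% of all genes. Of the 6 called genes Gbp3 rose most after Ifitm3, from 1.07, 0.896 and 1.87 FPKM to 4.52, 5.53 and 5.63 FPKM (1.47 ± 0.24, adjusted p 0.00492). Isg15 had a larger difference than any called gene and was not itself called (1.99 ± 0.50, adjusted p 0.0702). It was at 9.15, 13.2 and 9.09 FPKM at 1 day, above each 4 h library, and was called without contralateral left 5 and 10 day 5, with a pseudocount of 0.1 and in a fit of the 2 groups alone. The step had 3 calls without 4 h library 2, 2 without 1 day library 3 or 4, and 11 without contralateral left 5 and 10 day 5, which were left out together.

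None of the 8 microglial markers was called higher than sham right at 1 day, and their sums were 94.4 to 101 FPKM, against 94.2 to 120 in sham right. Of 7 tested monocyte and macrophage markers 1 was called, Fcgr1, and the sum of the list was 30.8 to 38.8 FPKM at 1 day against 20.0 to 26.3. Gfap, an astrocyte filament protein, was at 149 to 290 FPKM against 42.7 to 53.0 FPKM. The other astrocyte markers were not called and did not share one direction. Gja1 averaged 9.9 FPKM against 16.9, below every sham right library. Aqp4 (32.9 against 37.1) and Slc1a3 (49.3 against 53.2) had lower means, and Aldh1l1 (11.0 against 9.4) and Sox9 (6.27 against 5.78) higher ones. Neutrophil markers summed to 6.55, 27.4 and 12.4 FPKM in 1 day libraries 1, 3 and 4. All were above the sham right sums of 0.951 to 5.62, with 0 of 3 tested called. The 1 day libraries had the same order in Ifitm1 but not in Ifitm3 (39.2, 43.0 and 52.4 FPKM). At 4 h the neutrophil sums were 7.32 to 22.1 FPKM, while Ifitm1 averaged 2.4 FPKM against 2.33 in sham right. S100a8, a calcium-binding protein gene abundant in neutrophils, was at 1.8, 5.61 and 2.39 FPKM at 1 day against 1.31, 0.254 and 0.284 in sham right. Endothelial markers summed to 50.2 to 72.7 FPKM at 1 day, below the 93.5 to 102 of sham right, with 1 of 6 called lower. That was Itm2a (19.6 FPKM on average against 48.6), and the means of Cldn5 and Slco1a4 were lower too. Pecam1 (3.63 against 3.0), Flt1 (4.7 against 4.06) and Cdh5 (2.96 against 2.6) went the other way. Each lay above every sham right library, without a call. The part of these cell types in the change of Ifitm1 and Ifitm3 was not tested. In punches of tissue, more or fewer cells of a type and more or less RNA per cell cannot be told apart.

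At 3 days 26 of the 35 genes were called higher than sham right and none lower, against 6.91% of all genes called higher and 0.457% called lower. All 35 log2 fold changes were above 0, with a median of 1.09 against 0.08 over all genes tested; after quantile normalization 34 were above 0, Cmpk2 being below. In 29 of the 35 genes every 3 day library lay above every sham right library, as for 27.2% of all genes. The 9 genes not called were Isg15, Ifit1, Ifit2, Rsad2, Cmpk2, Samd9l, Rtp4, Stat2 and Irf1. Without sham right 1 there were 28 calls, and Isg15, Ifit1 and Rtp4 were among them. At 10 days 22 were called higher and none lower, against 6.21% and 0.92% of all genes, with a median of 0.87 against -0.07. Here 26 of the 35 lay above all sham right libraries, as did 13.8% of all genes. Of the 35, 20 were called at both times, 6 at 3 days alone (Ddx58, Dhx58, Gbp7, Herc6, Ifi27 and Ifitm1) and 2 at 10 days alone (Irf1 and Samd9l). Both comparisons share the sham right libraries. Without sham right 2, the lowest of the controls, 14 were called at 10 days; Ifi35, Ifit3, Ifitm2, Irf1, Irf7, Irf9, Samd9l and Xaf1 lost their calls, and each did so without at least 1 other library. A fit of the 10 day and sham right libraries alone called 13. At 3 days Ddx58 was not called without 3 day library 8, Herc6 without sham right 3 or 3 day library 8, and Irf7 and Parp14 without sham right 2, sham right 3 or 3 day library 8. Samd9l and Rsad2 were called at 3 days without 3 day library 2 (adjusted p 0.0275 and 0.0337), and Irf1 without 3 day library 1 (0.58, adjusted p 0.05 after rounding).

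**Figure D3:**
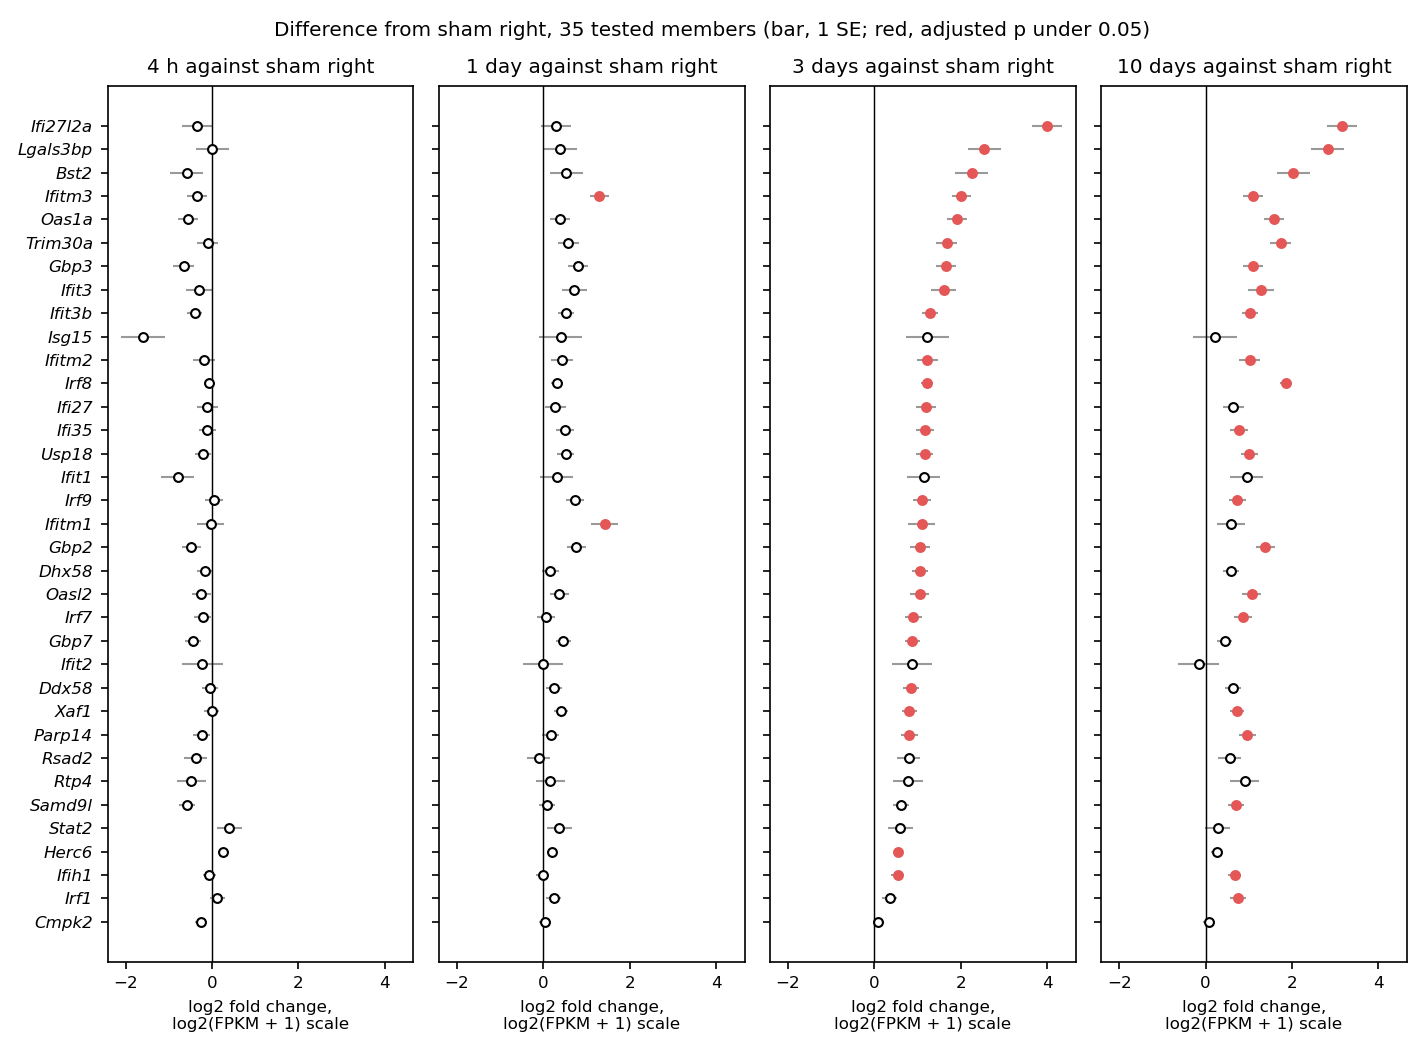
Log2 fold change against sham right on the log2(FPKM + 1) scale (x axis; bars, 1 SE) of the 35 tested genes (y axis, ordered by the 3 day value) at 4 times. Red points have an adjusted p under 0.05: 0 at 4 h, 2 at 1 day, 26 at 3 days and 22 at 10 days.

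Among the transcription factors, Irf7, the factor that amplifies type I interferon production, was at 2.12, 1.51 and 3.12 FPKM at 3 days and 1.95, 2.22 and 2.20 FPKM at 10 days. In sham right it was at 1.3, 0.425 and 0.520 FPKM, below both. It rose at 3 days (0.90 ± 0.20, adjusted p 0.00832) and at 10 days (0.87 ± 0.20, adjusted p 0.0105). With single libraries left out its adjusted p reached 0.0646 at 3 days and 0.0733 at 10 days. Irf9, the DNA-binding part of the STAT complex, rose at 3 days (4.71, 3.2 and 5.62 FPKM against 2.28, 1.24 and 1.17) by 1.11 ± 0.20 and at 10 days by 0.74 ± 0.20. Its partner Stat2 was at 2.85, 2.03 and 4.12 FPKM at 3 days and 1.49, 1.87 and 1.4 FPKM in sham right, and was not called at any time. Irf1, a factor induced by interferon gamma, was at 1.25, 2.17 and 2.91 FPKM at 3 days, overlapping sham right (1.70, 1.17 and 1.25). At 10 days Irf1 was at 2.84, 2.93 and 3.17 FPKM, above every sham right library, and was called (0.75 ± 0.18, adjusted p 0.0112).

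Irf8 is a factor that microglia and other myeloid cells need. Its window shown above holds 2 GAS-type matches, and the window of its second start holds none. Irf8 was at 0.701, 0.540 and 0.676 FPKM in sham right, 3.13, 2.35 and 3.04 at 3 days and 6.13, 4.99 and 3.85 at 10 days. The 3 groups did not overlap. Irf8 rose at 3 days (1.22 ± 0.14, adjusted p 1.71e-05), rose from 1 day to 3 days (0.90 ± 0.14, adjusted p 0.000612) and rose again from 3 to 10 days (0.63 ± 0.14, adjusted p 0.0207). It was the only one of the 35 called higher at 10 days than at 3 days, against 0.828% of all genes, and it was not called in that step without 3 day library 2, 10 day library 1 or 10 day library 2 (adjusted p up to 0.102), with a pseudocount of 0.1, or in a fit of the 2 groups alone.

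The RNA sensors recognise viral RNA inside the cell. Ddx58 (RIG-I) was at 2.19, 1.56 and 3.36 FPKM at 3 days against 1.13, 0.639 and 0.728 in sham right. Ifih1 (MDA5) was at 1.88, 1.47 and 2.58 FPKM against 1.1, 0.943 and 1.05. Dhx58 (LGP2), which modulates the other two, was at 1.71, 1.11 and 2.93 FPKM against 0.501, 0.262 and 0.325. None of the 3 overlapped sham right, and all 3 rose at 3 days, by 0.85, 0.54 and 1.05 on the log2 scale. Ifih1 was called with an adjusted p of 0.04 and lost the call without any 1 of 5 of the 6 libraries, sham right 1 among them (adjusted p up to 0.256). At 10 days Ifih1 was called (0.67 ± 0.15), Ddx58 and Dhx58 were not (adjusted p 0.0527 and 0.083); Ddx58 was called without sham right 1 (0.74, adjusted p 0.0463) and Dhx58 without 10 day library 5 (0.75, adjusted p 0.0309).

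The oligoadenylate synthetases make a second messenger that switches on an RNA-degrading enzyme; the genes of this family resemble each other and can share reads, so their separate values are uncertain to that extent. Oas1a was at 5.72, 3.64 and 7.57 FPKM at 3 days and 3.56, 4.72 and 4.35 FPKM at 10 days, all above the highest sham right library at 1.66 FPKM. It rose by 1.91 ± 0.23 at 3 days (adjusted p 3.78e-05) and 1.59 ± 0.23 at 10 days (adjusted p 0.00016). At 4 h it was at 0.132, 0.176 and 0.208 FPKM, the lowest of any group, without a call. The ratio of the 3 day to the sham right mean was 6.97. Oasl2 rose at both times (1.05 ± 0.22 and 1.07 ± 0.22), and at 10 days library 5, at 3.87 FPKM, stood above the other two at 1.61 and 1.72. Oas2, Oas3 and Oasl1 stayed under 2 FPKM in every library and had 3 day means of 1.06, 0.165 and 0.738 FPKM. With no filter on low values, all 3 were called higher at 3 days (adjusted p 0.0117, 0.00191 and 0.00321), and the fourth low gene, Ifi44, was not (adjusted p 0.256).

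The IFIT proteins bind viral RNA and block its translation, and their genes lie side by side on chromosome 19. Ifit3 was at 25.8, 21.6 and 38.8 FPKM at 3 days, 21.6, 28.4 and 17.9 at 10 days and 14.0, 5.61 and 7.73 in sham right. It rose by 1.60 ± 0.30 at 3 days (adjusted p 0.002) and 1.29 ± 0.30 at 10 days (adjusted p 0.011). The near-copy Ifit3b was at 11.9, 9.25 and 15.2 FPKM at 3 days against 4.99, 3.59 and 4.28, and rose by 1.3 ± 0.18 at 3 days and 1.02 ± 0.18 at 10 days. Reads from Ifit3 and Ifit3b may be split between them. Ifit1, at 6.26, 5.59 and 11.4 FPKM at 3 days, overlapped sham right through sham right 1 (7.23) and was not called (1.14 ± 0.39, adjusted p 0.102). Without sham right 1 it was called at 3 days (1.69 ± 0.31, adjusted p 0.00271) and at 10 days (1.5 ± 0.31, adjusted p 0.00589). Ifit2 was at 8.46, 6.95 and 10.7 FPKM at 3 days, above every sham right library (5.33, 3.32 and 4.28), and was not called (0.87 ± 0.47, adjusted p 0.409). At 10 days Ifit2 was at 6.44 and 8.72 FPKM in 2 libraries and at 0.420 in 10 day library 5, and its log2 fold change of -0.16 ± 0.47 became 0.70 ± 0.21 without that library (adjusted p 0.0739).

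In the ISG15 system, Isg15 was at 21.5, 13.1 and 24.2 FPKM at 3 days, overlapping sham right at 18.4 FPKM in sham right 1. It was not called (1.23 ± 0.50, adjusted p 0.212), and it was called without sham right 1 (1.81 ± 0.47, adjusted p 0.0329). At 10 days it was at 12.6, 15.0 and 3.59 FPKM, the last again in library 5, and was not called with or without sham right 1. Usp18, the protease that removes ISG15 and dampens the receptor, was at 2.39, 1.58 and 3.01 FPKM at 3 days and 1.67, 2.38 and 1.85 FPKM at 10 days, above each sham right value (1.00, 0.224 and 0.279). Usp18 rose at both times (1.16 ± 0.20, adjusted p 0.000831, and 1.01 ± 0.20, adjusted p 0.00249). Herc6, the ligase that attaches ISG15 in mice, rose at 3 days by 0.54 ± 0.12 (adjusted p 0.00746), and at 10 days it was not called (0.26 ± 0.12).

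**Figure D4:**
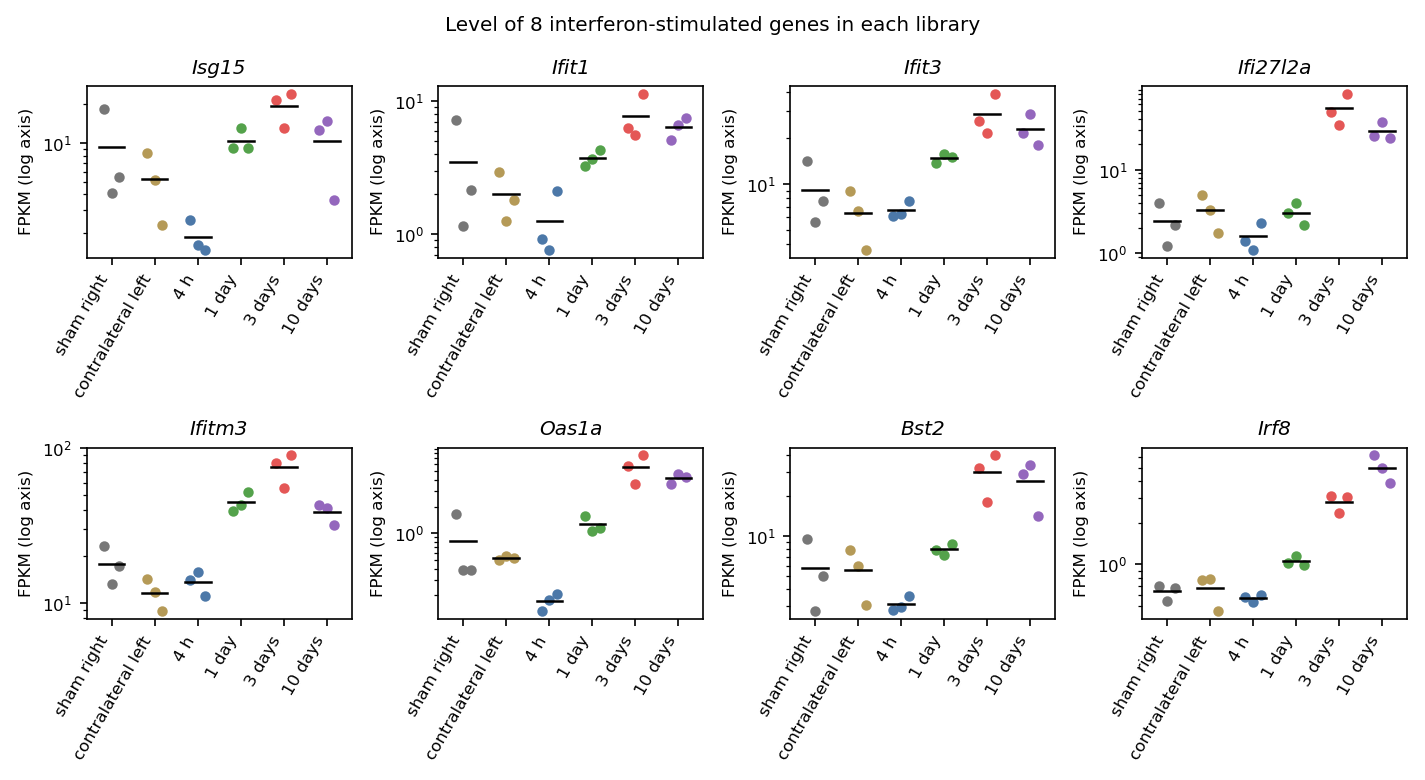
FPKM on a log axis in each of 18 libraries by group for 8 genes; points are libraries in number order and bars are group means. Isg15 and Ifit1 overlap between sham right and 3 days through sham right 1, whereas Ifi27l2a, Ifitm3, Oas1a, Bst2 and Irf8 do not overlap between those groups.

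The IFITM genes and Bst2 (tetherin, which holds budding virions on the cell surface) all rose at 3 days, 4 of 4. Ifitm3 had the highest 3 day mean FPKM of the 39 genes, at 79.8, 55.7 and 90.0, with a log2 fold change of 2.01 ± 0.23 (adjusted p 2.13e-05). It then fell to 43.1, 41.4 and 32.1 FPKM at 10 days, below each 3 day library, and was the only one of the 35 called lower in that step (-0.92 ± 0.23, adjusted p 0.0499), against 1.19% of all genes. That call was lost without any 1 of 5 of the 6 libraries (adjusted p up to 0.216), after quantile normalization, with no filter or one of 5 FPKM, with a pseudocount of 0.1, and in a fit of the 2 groups alone. Ifitm3 remained above sham right at 10 days (1.1 ± 0.23, adjusted p 0.00459). Ifitm2 was at 26.5, 18.4 and 27.7 FPKM at 3 days against 11.3, 8.89 and 8.90 and rose by 1.22 ± 0.25. Ifitm1, highest at 1 day, was at 5.27, 4.01 and 9.85 FPKM at 3 days, with an adjusted p of 0.0469 that reached 0.302 with single libraries left out (sham right 2 or 3, 3 day library 1 or 8), and at 5.33, 2.96 and 3.70 FPKM at 10 days with no call. Bst2 was at 32.2, 18 and 39.9 FPKM at 3 days and 29.1, 33.9 and 14.1 FPKM at 10 days, above each sham right value (9.45, 2.75 and 5.01). It rose by 2.26 ± 0.38 and 2.02 ± 0.38 (adjusted p 0.000869 and 0.00204).

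All 3 guanylate-binding protein genes rose at 3 days, and 2 of the 3 at 10 days. Gbp3 was at 10.4, 6.96 and 14.3 FPKM at 3 days (1.65 ± 0.24, adjusted p 0.000171) and at 5.80, 7.22 and 6.84 FPKM at 10 days (1.1 ± 0.24, adjusted p 0.0058). Gbp2 was at 7.12, 5.34 and 8.42 FPKM at 3 days against 3.60, 2.07 and 2.84, and at 7.05, 8.59 and 11.5 FPKM at 10 days, its highest group. It rose by 1.05 ± 0.23 and then 1.38 ± 0.23, and the change from 3 to 10 days was not called (adjusted p 0.419). Gbp7 rose at 3 days (0.87 ± 0.17, adjusted p 0.00349) and was not called at 10 days (0.44 ± 0.17, adjusted p 0.171). These genes lie close together on chromosome 3 and are similar in sequence, so reads can be shared.

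Among the other effectors, 7 of the 11 tested rose at 3 days and 7 at 10 days. The largest change of the 35 was that of Ifi27l2a, a small mitochondrial protein gene of the ISG12 family. It was at 48.1, 34.1 and 80.4 FPKM at 3 days and 25.1, 37.5 and 24 FPKM at 10 days, against 3.97, 1.23 and 2.15 FPKM in sham right. The 3 day to sham right ratio of means was 22.1, and the log2 fold change was 3.99 ± 0.35 (adjusted p 1.97e-06). At 1 day Ifi27l2a was at 3.03, 3.95 and 2.17 FPKM, inside the sham right range, and it rose from 1 day to 3 days (3.70 ± 0.35, adjusted p 8.38e-06). Its relative Ifi27 was at 36.7, 28.3 and 37.2 FPKM at 3 days against 17.3, 12.2 and 13.6, a rise of 1.2 ± 0.24; at 10 days it was not called, with library 5 at 14.4 FPKM, inside the sham range, and the others at 27.5 and 29.3. Without library 5 Ifi27 was called at 10 days (0.95, adjusted p 0.00871).

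Lgals3bp, a secreted glycoprotein that binds galectins, was at 19.7, 12.3 and 26.5 FPKM at 3 days and 26.6, 23.9 and 18.9 FPKM at 10 days, against 3.11, 2.51 and 1.65 in sham right. It rose by 2.55 ± 0.38 and 2.83 ± 0.38 (adjusted p 0.000296 and 8.07e-05). Trim30a, a ubiquitin ligase family gene of mice, was at 4.85, 2.94 and 6.52 FPKM at 3 days and 3.75, 3.89 and 7.53 FPKM at 10 days, above each sham right library (1.35, 0.445 and 0.580). It rose by 1.67 ± 0.24 and 1.74 ± 0.24. Ifi35, Xaf1 (a promoter of apoptosis) and Parp14 (an ADP-ribosyltransferase) rose at both times as well, by 0.80 to 1.16 at 3 days and 0.73 to 0.97 at 10 days. Samd9l, an inhibitor of translation, was called at 10 days alone (0.70 ± 0.18, adjusted p 0.0256; at 3 days 0.61 ± 0.18, adjusted p 0.0576). Rsad2 (viperin, which makes a chain-terminating nucleotide) was at 1.44, 1.24 and 4.35 FPKM at 3 days against 1.29, 0.546 and 0.577, overlapped sham right and was not called (0.79 ± 0.27, adjusted p 0.099). Its genomic neighbour Cmpk2, a mitochondrial nucleotide kinase, was at 8.79, 8.47 and 8.31 FPKM at 3 days and 8.68, 7.48 and 7.71 in sham right (0.09 ± 0.13, adjusted p 0.823). Rtp4, a chaperone of receptors on their way to the cell surface, was at 2.87, 2.02 and 4.08 FPKM at 3 days against 3.12, 1.02 and 0.427 in sham right, with no call; without sham right 1 it was called (1.2 ± 0.31, adjusted p 0.0283).

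From 1 day to 3 days 12 of the 35 genes were called higher and none lower, against 5.07% of all genes called higher and 0.15% called lower. In 26 of the 35 every 3 day library lay above every 1 day library, as for 16.9% of all genes. Those called were Ifi27l2a, Irf8, Oas1a, Lgals3bp, Dhx58, Bst2, Trim30a, Ifit3b, Irf7, Ifi27, Ifih1 and Gbp3. Lgals3bp went from 3.1, 3.1 and 4.19 FPKM to 19.7, 12.3 and 26.5 FPKM (2.15 ± 0.38, adjusted p 0.00245), and Oas1a from 1.57, 1.07 and 1.16 FPKM to 5.72, 3.64 and 7.57 (1.51 ± 0.23, adjusted p 0.000629). The count of this step turned on single libraries. It was 20 without 3 day library 2, 4 without 3 day library 8, 5 without 3 day library 1 and 7 without 1 day library 1 or 3. From 3 to 10 days the median change was -0.23 over the 35 genes and -0.15 over all genes tested, with Irf8 and Ifitm3 called. Irf8 and Ifitm3 thus changed in opposite directions; a test of one against the other was not made.

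Within 3 days the libraries kept nearly one order over the 39 genes. Library 8 was the highest in 37 and library 2 the lowest in 37, while over all genes tested library 8 was the highest in 44.9% and library 2 the lowest in 45.2%. The sums over the 39 genes were 409, 292 and 529 FPKM in libraries 1, 2 and 8. The microglial sums had the same order, at 288, 232 and 319 FPKM, as did the monocyte and macrophage sums, at 185, 112 and 231 FPKM. Without library 2 or without library 8 Bst2 stayed called (2.58 ± 0.40 and 2.02 ± 0.42). At 10 days the orders differed: library 2 had the highest sum over the 39 genes (344 FPKM, against 303 and 257), while library 5 had the highest microglial and macrophage sums.

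**Figure D5:**
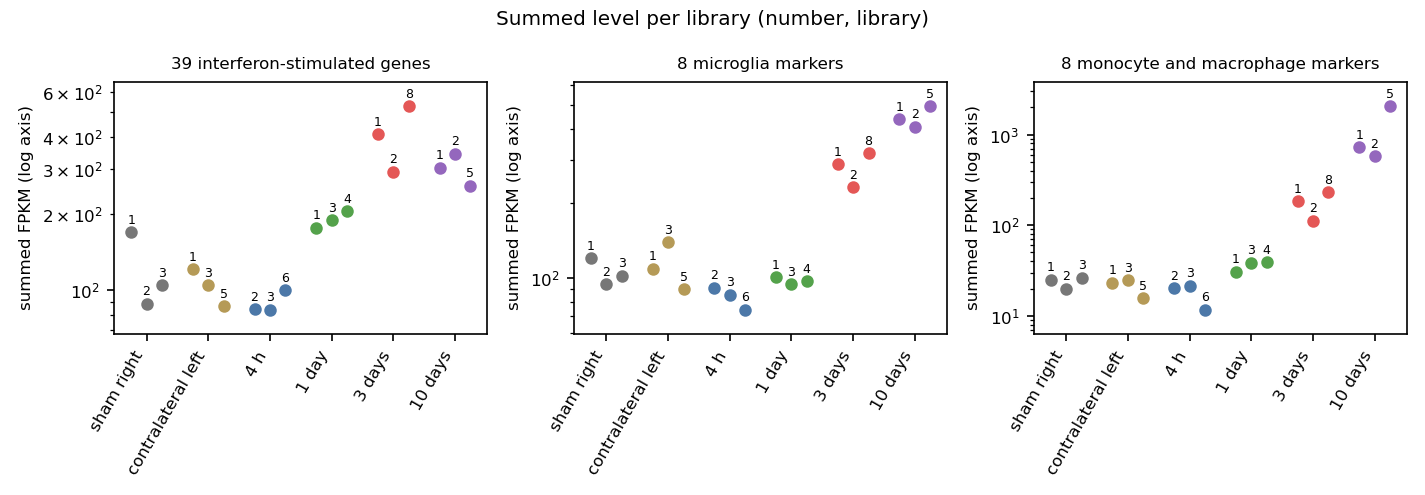
Summed FPKM on a log axis in each library (numbered) by group, for the 39 genes, for 8 microglial markers and for 8 monocyte and macrophage markers. The order of 3 day libraries 1, 2 and 8 is the same in the 3 panels, and at 10 days the marker sums are higher than at 3 days while the sums of the 39 genes are not.

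Marker genes of some cell types were higher at 3 and 10 days, and those of others were not. Neuron markers summed to 790 to 911 FPKM in sham right, 790 to 1020 at 3 days and 819 to 911 at 10 days. Summed microglial markers were 94.2 to 120 FPKM in sham right, 232 to 319 at 3 days and 407 to 494 at 10 days, with 5 and 4 of 8 called higher. Tmem119, a resident microglial gene, was called at 3 days (15.6 FPKM on average against 7.25) and not at 10 days (14.9 FPKM, adjusted p 0.0671). P2ry12 was not called at either time. Summed monocyte and macrophage markers were 20.0 to 26.3 FPKM in sham right, 112 to 231 at 3 days and 582 to 2070 at 10 days, with 4 and 6 of 7 called higher; Ccr2, which marks recruited monocytes, was at 0.293 to 1.13 FPKM at 3 days. Lymphocyte markers summed to 0.804 to 0.927 FPKM in sham right, 0.5 to 1.39 at 3 days and 3.04 to 5.23 at 10 days. Summed endothelial markers were 105 to 115 FPKM at 3 days and 78.5 to 114 at 10 days, and Gfap was at 362 to 517 FPKM at 3 days. From 3 to 10 days Gfap (434 to 210 FPKM on average) and Aldh1l1 (16.4 to 6.78) were called lower. Aqp4, Gja1, Sox9 and Slc1a3 were not called in that step. Neutrophil markers summed to 4.77 to 8.77 FPKM at 3 days and 3.82 to 5.93 at 10 days, overlapping the sham right sums of 0.951 to 5.62 at both times, with none called. Ly6g, a marker of mouse neutrophils, was listed at 0 in 14 of the 18 libraries, among them all sham right, 4 h, 1 day and 3 day libraries, so its zero also stands at the times when the sums were higher. Choroid plexus and ependymal markers summed to 411 to 637 FPKM at 10 days, above the 149 to 274 of sham right. Of 4 plasmacytoid dendritic cell markers measured, 1 is Bst2 itself, and Ccr9 did not pass 0.152 FPKM in any library. The part of these cell types in the rise of the interferon-stimulated genes was not tested.

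The genes of the pathway that were not on the list were counted in the same fit. Of 17 interferon ligand genes listed, 6 were in the table (Ifnb1, Ifna13, Ifnab, Ifnk, Ifnz and Ifng), and none passed the filter. Ifnb1 was listed at 0 in 13 of the 18 libraries and did not pass 0.0605 FPKM, and Ifng was listed at 0 in 11 and did not pass 0.0760 FPKM. The summed FPKM of the 6 was highest in sham right 3 (0.157), and all 6 were listed at 0 in sham right 1.

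Of 8 tested receptor and kinase genes, none was called at 4 h or 1 day, 3 rose at 3 days (Il10rb, Ifngr1 and Ifnar2) and 4 at 10 days (the same with Jak2). Ifnar2, a chain of the type I receptor, rose at 3 days (0.69 ± 0.12) and 10 days (0.90 ± 0.12), whereas Ifnar1, the other chain, was not called (0.38 ± 0.18 and 0.28 ± 0.18). Ifngr1, the binding chain of the interferon gamma receptor, rose at both times (0.91 ± 0.15 and 1.54 ± 0.15) and again from 3 to 10 days (0.63 ± 0.15, adjusted p 0.0432), and Ifngr2 was not called. Of 12 tested sensing and induction genes 6 rose at 3 days and 7 at 10 days, among them Tmem173 (STING) at both times (1.42 ± 0.17 and 1.46 ± 0.17) and Tlr7, a sensor of single-stranded RNA, at 10 days alone (2.68 ± 0.35).

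Of 7 negative regulators, Socs3 rose at 4 h, at 3.59, 5.36 and 6.55 FPKM against 1.61, 0.900 and 0.981 (1.5 ± 0.27, adjusted p 0.00771), a time with no call among the 35 genes. Socs3 was also called at 1 day and 3 days but not at 10 days (0.30 ± 0.27). Ptpn6, a phosphatase of blood cells and microglia, rose at 3 and 10 days (1.56 ± 0.14 and 2.20 ± 0.14). Of 29 other tested interferon-induced genes, none was called at 4 h, 4 rose at 1 day (Igtp, Cxcl10, Irgm1 and Slfn2), 23 at 3 days and 23 at 10 days, and none fell. Cxcl10, a chemokine for T cells, was at 1.44, 4.77 and 4.44 FPKM at 1 day against 0.475, 0.0764 and 0.286 (1.74 ± 0.33, adjusted p 0.0112), and at 3.22, 3.71 and 6.79 FPKM at 10 days. Cxcl9, a related chemokine, was at 1.13, 1.77 and 3.89 FPKM at 10 days and at most 0.469 FPKM in any library of the other groups, and rose from 3 to 10 days (1.53 ± 0.22, adjusted p 0.00115). Eif2ak2 (PKR), which halts translation, rose at 3 days (1.29 ± 0.20) and 10 days (0.95 ± 0.20). Mx1, at 0.940, 0.975 and 2.65 FPKM at 3 days and 0.173, 0.0361 and 0.170 in sham right, did not pass the filter.

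The promoter windows were set beside the 3 day result. Of the 17 members with an ISRE-type match, 16 were tested and 12 were called higher at 3 days, with a median log2 fold change of 1.22. Of the members with a window and no match, 13 were tested and 9 were called, with a median of 0.90. Cmpk2, at 0.09 on the log2 scale, and Lgals3bp, at 2.55, both lacked a match, and Isg15, with 3 overlapping matches, was not called. Among tested genes outside the list, 57 of 352 with a match (16.2%) were called higher at 3 days, and 657 of 9507 without one (6.91%). Only the 39 members were left out here, and the other interferon-induced genes counted above were not removed. The part of the motif in this difference was not tested.

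In contralateral left none of the 35 genes was called higher or lower than sham right, against 0.0214% of all genes called higher and 0.00713% called lower. By the unadjusted p under 0.05, none was higher and 3 were lower. With 10 day 5 and contralateral left 5 left out, 1 was called lower, and without contralateral left 5 Cmpk2 was called lower (-0.45, adjusted p 0.0345). The median log2 fold change was -0.17 against -0.05 over all genes, and 0.01 without sham right 1. Summed endothelial markers were 55.5 to 87.0 FPKM there, summed choroid plexus and ependymal markers 385 to 547 FPKM and summed neutrophil markers 4.87 to 16.3 FPKM; their part in these values was not tested. Isg15 was at 8.34, 5.17 and 2.32 FPKM there, Ifitm3 at 14.3, 11.8 and 8.84 FPKM and Ifi27l2a at 4.95, 3.28 and 1.74 FPKM. With contralateral left as the control in place of sham right, 32 of the 35 genes were called higher at 3 days, against 9.34% of all genes. In the same comparison 24 were called at 10 days against 7.2% of all genes, 4 at 1 day against 1.28%, and none at 4 h against 1.06%. None was called lower, against 0.649%, 1.42%, 0.464% and 0.2% of all genes at 3 days, 10 days, 1 day and 4 h.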

How the data were processed

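RNA-seq values of 18 libraries in 6 groups of 3 were used. The tools named in the submitters' processing notes are StringTie 1.3.4d, HISAT2 2.1.0 and Trimmomatic 0.36, with mouse build GRCm38; their roles, settings, annotation and strand handling are not given in the sources used here. The values are FPKM as deposited by the authors, so a library rich in mitochondrial RNA has lower values for other genes. The p-values and q-values that the authors deposited beside them name no comparison and were not used. The copy ends inside a line, which was dropped. Gene coordinates are from GENCODE M21 on GRCm38, and promoter sequences from RefSeq (GRCm38.p6).

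Genes with at least 1 FPKM in 3 or more libraries were fitted as log2(FPKM + 1) with limma 3.58.1 in R 4.3.3, 1 mean per group over all 18 libraries, with trended and robust moderation. Fold changes on this scale understate changes of low genes. Each comparison's p-values received a Benjamini-Hochberg adjustment across the 14016 genes, and 0.05 was the limit for a call. Values after ± are standard errors unless SD is written; n is 3 animals per group, per the labels' protocols. There were 8 comparisons, and those at 4 times share the sham right libraries. The fit was tested on simulated data. The alternatives were another pseudocount (0.1), no filter, a filter of 5 FPKM, scaling without mitochondrial genes, quantile normalization, fits of 2 groups alone, a block on the library number (statmod 1.5.0), other moderation, other controls, 2 libraries that stand apart left out, and each library left out. The members, the pathway lists and the marker lists were chosen with earlier results of these data known. Any member may be named; from a pathway list, any gene where 5 or fewer were measured or called, otherwise the 3 called genes with the smallest adjusted p per comparison and direction, and a panel (Ifnb1, Ifng, Ifnar1, Ifnar2, Ifngr1, Ifngr2, Mx1, Cxcl10, Eif2ak2; 1 further gene is not reported here); and the defining markers. Ly6g, the endothelial markers other than Pecam1 and the astrocyte markers other than Gfap were named after their values were seen.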

Additional observations from a re-analysis of the deposited data

Results flagged for a closer look

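The difference from sham right changed between neighbouring times, by the test of one time against the next, in 6 of the 35 genes between 4 h and 1 day (Ifitm3, Gbp3, Gbp2, Gbp7, Ifit3b and Ifitm1), in 12 between 1 day and 3 days, and in 2 between 3 and 10 days (Irf8 higher, Ifitm3 lower). Groups of 3 libraries are too small for the test of a single outlying sample, so sham right 1 and 10 day library 5 were not tested as such.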

How the results depend on the processing

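Over the 280 values of 35 genes in 8 comparisons, the alternatives gave 4320 values; 4083 kept direction and side of the threshold, 160 lost a call, 77 gained one, and no called value changed sign. Leaving out 1 library at a time gave 0 to 0 genes called higher at 4 h, 0 to 2 at 1 day, 20 to 28 at 3 days, 14 to 25 at 10 days, 0 to 0 in contralateral left, 2 to 6 from 4 h to 1 day, 4 to 20 from 1 to 3 days and 0 to 1 from 3 to 10 days. With a filter of 5 FPKM, 15 of the members were tested, and 10 were called at 3 days, 9 at 10 days, 5 from 1 to 3 days and 0 from 3 to 10 days. Fits of 2 groups alone called 13 at 10 days and 0 from 3 to 10 days, and a pseudocount of 0.1 called 0 in that step. At 1 day 1 gene was called with no filter and 1 after quantile normalization, 4 against contralateral left and 5 against both controls. Without contralateral left 5 and 10 day 5, 11 rose from 4 h to 1 day. Quantile normalization left 7 calls from 1 to 3 days; it moved the median of all genes at 3 days from 0.08 to -0.05 and that of the members from 1.09 to 0.94, with all-gene calls of 678 higher and 207 lower in place of 968 and 64 (at 10 days 868 and 301 in place of 871 and 129; 1 day against 4 h 91 and 100 in place of 119 and 53; 10 against 3 days 192 and 142 in place of 116 and 167). Scaling without mitochondrial genes gave 148 and 58 at 4 h in place of 185 and 121. Apart from the smaller number of genes or libraries in some settings, the cause was not tested.

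With the library number as a replicate block (correlation 0.154), 26 members were called at 3 days, 23 at 10 days, 2 at 1 day, 6 from 4 h to 1 day and 13 from 1 to 3 days. Of 14 pairs of libraries with one number 4 deviated together (r above 0.1, range -0.227 to 0.409). Pairs of a lesion time with sham right or with another time join different mice, so their r cannot show pairing. The pairs of contralateral left and sham right gave r of 0.219 (number 1) and 0.102 (number 3). Whether these share a mouse is not stated, and the main fit treated all libraries as unpaired. Most members lie at a few FPKM, where FPKM without counts gives no interval for depth.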
